A study of Mus musculus with 16 samples.

Results

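The protein-coding genes for subunits of the receptors for glutamate and GABA were followed by poly(A) RNA sequencing in cortex samples from 16 mice, all 5 months old. They were chosen by gene name alone, as the ionotropic glutamate receptor genes Gria, Grin, Grik and Grid, the metabotropic glutamate receptor genes Grm, the GABAA and rho genes Gabr, and the GABAB genes Gabbr. The choice gave 46 of the 55385 genes in the count table, of which 21856 were protein-coding. Grik1 was not a member because it lies in the segment that Dp16 mice carry in an extra copy. Each library came from 1 animal, with 4 animals per genotype. The 5xFAD-Dp16 animals, all male, carried both the 5xFAD transgenes and the Dp16 duplication. The 5xFAD animals, 2 females and 2 males, carried the transgenes without the duplication. The Dp16 animals, again 2 of each sex, carried the duplication without the transgenes, and the wild-type animals, 2 of each sex, were C57BL/6J. The labels give no strain for the other 3 genotypes. The 5xFAD transgenes include human APP with familial Alzheimer's disease mutations and are expressed from the neuronal Thy1 promoter. Dp16 is a duplication of the part of mouse chromosome 16 that is orthologous to human chromosome 21. Bounded here by Lipi and Zbtb21, that segment spans chr16:75540514-97962622 on GRCm38 and held 0 of the 46 members. The members on chromosome 16, Grin2a (chr16:9567898-9995560) and Gabrr3 (chr16:59407332-59464504), lie outside it.

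Glutamate is the main excitatory transmitter of the cortex. It opens AMPA, NMDA and kainate receptors, which are channels assembled from several subunits, and it also acts on metabotropic receptors, which signal through G proteins. GABA, the main inhibitory transmitter, opens GABAA receptors, chloride channels whose alpha, beta, gamma and delta subunits set their location and drug sensitivity, and acts on the G protein-coupled GABAB receptor. Which subunits a cell makes determines, among other properties, the calcium permeability, the kinetics and the synaptic or extrasynaptic position of its receptors.

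In 4 members the 4 libraries of 1 genotype lay above the 12 other libraries. These were Gria1, Grm7 and Gabrq for 5xFAD-Dp16, an order that 0.118% of all tested genes showed, and Gabra2 for 5xFAD, where 0.535% did. Gabrq passed the filter on low counts only through its 5xFAD-Dp16 libraries, so its order is no separate support. No member had the 4 libraries of Dp16 or wild-type above the others (0.118% and 0.0705% of all genes). None had the 4 libraries of 1 genotype below the others, an order that 0.0823% of all genes showed for 5xFAD-Dp16, 0.341% for 5xFAD, 0.0764% for Dp16 and 0.194% for wild-type. The promoter windows of Grm7, Gabrq and Gabra2 are shown because these genes had 1 genotype above the others. No window was matched for Gria1. For Grm7 the one of its 2 windows whose start lies nearest to the 5′ end of the gene in Gencode is given. The windows come from RefSeq (build GRCm38.p6) and run from 250 bases before to 50 bases after the annotated start, 5′ to 3′ on the strand of the gene. Capitals mark GGGCGG or its reverse complement CCGCCC, the core of the GC box.
Grm7, chr6:110645348-110645647, plus strand: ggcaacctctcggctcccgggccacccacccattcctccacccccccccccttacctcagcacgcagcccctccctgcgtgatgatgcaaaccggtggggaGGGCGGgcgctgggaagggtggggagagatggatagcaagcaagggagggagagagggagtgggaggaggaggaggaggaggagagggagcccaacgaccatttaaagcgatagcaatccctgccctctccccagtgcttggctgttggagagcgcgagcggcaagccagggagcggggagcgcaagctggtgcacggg
Gabrq, chrX:72824928-72825227, plus strand: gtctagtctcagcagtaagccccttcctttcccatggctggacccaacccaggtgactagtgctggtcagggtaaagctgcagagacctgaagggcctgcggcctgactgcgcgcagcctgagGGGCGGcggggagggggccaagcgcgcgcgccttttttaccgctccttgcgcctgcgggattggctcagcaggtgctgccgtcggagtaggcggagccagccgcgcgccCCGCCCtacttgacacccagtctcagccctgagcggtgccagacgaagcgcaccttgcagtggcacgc
Gabra2, chr5:71095800-71096099, minus strand: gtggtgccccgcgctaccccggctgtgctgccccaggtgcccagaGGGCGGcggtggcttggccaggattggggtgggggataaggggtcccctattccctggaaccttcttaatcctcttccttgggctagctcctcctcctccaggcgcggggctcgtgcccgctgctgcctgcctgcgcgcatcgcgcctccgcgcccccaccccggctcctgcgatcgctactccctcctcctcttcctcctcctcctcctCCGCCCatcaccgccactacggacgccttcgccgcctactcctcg
Windows were matched for 32 of the 46 members. On either strand, GGGCGG was found in 18 of these 32 windows, against 35.7% of all 32851 windows of the same length. The 32 windows, 1 per member, had a median GC content of 62.4%, and GGGCGG is made of G and C alone. The set of all windows holds several for some genes and was not matched for GC content, so the shares are given without a test. TATAAA, searched on both strands, was in 3 of the 32 windows, against 13.6% of all windows. The cyclic AMP response element TGACGTCA, its own reverse complement, was in 0 of the 32, against 1.79% of all windows. None of these motifs contains another, and a match describes the letters of the window and not a bound site.

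The libraries held between 12483286 and 20385010 reads counted to genes. All 7 excitatory and all 8 inhibitory neuron markers were detected in the tissue, and Gabra6, a granule cell subunit of the cerebellum, had 8 reads over the 16 libraries. Some libraries stood apart. 5xFAD replicate 3 had the lowest summed excitatory marker level, at 932 CPM, where the other 5xFAD libraries had 1569 to 2209 CPM. Wild-type replicate 4 had the highest sum of its genotype at 3445 CPM, where the other wild-type libraries had 1387 to 2202 CPM. So had 5xFAD-Dp16 replicate 1, at 3633 CPM where the others of its genotype had 2262 to 2814 CPM. Dp16 replicate 3 had 3529 CPM, where the other Dp16 libraries had 1572 to 2461 CPM. In addition, 5xFAD-Dp16 replicate 2 held choroid plexus markers at 687 CPM, against 5.12 to 22.6 CPM in the other 3 libraries of that genotype, and Dp16 replicate 3 held them at 108 CPM. CPM here are read counts scaled to library size with trimmed-mean (TMM) factors, and they are not scaled by gene length. Whether a gene's level differs because fewer cells of a type were present or because each cell held less of its RNA cannot be told apart in bulk tissue.

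Levels of different genes were compared in RPKM, which are scaled by gene length. Gabbr1, a required partner in the GABAB receptor, had a mean level of 96.4 RPKM over the 16 libraries. Gria1 stood at 63.0 RPKM, Gabrd at 55.6, Grin1 at 54.2, Gabra3 at 47.4 and Gabra4 at 44.0 RPKM. Within their families, Grm3 led the metabotropic glutamate receptors at 28.8 RPKM, Grik5 the kainate subunits at 19.4 and Grid1 the delta receptors at 4.70 RPKM. At the low end of the tested genes, Gabrq averaged 0.13 RPKM, and Grin2d averaged 0.63 RPKM.

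**Figure D1:**
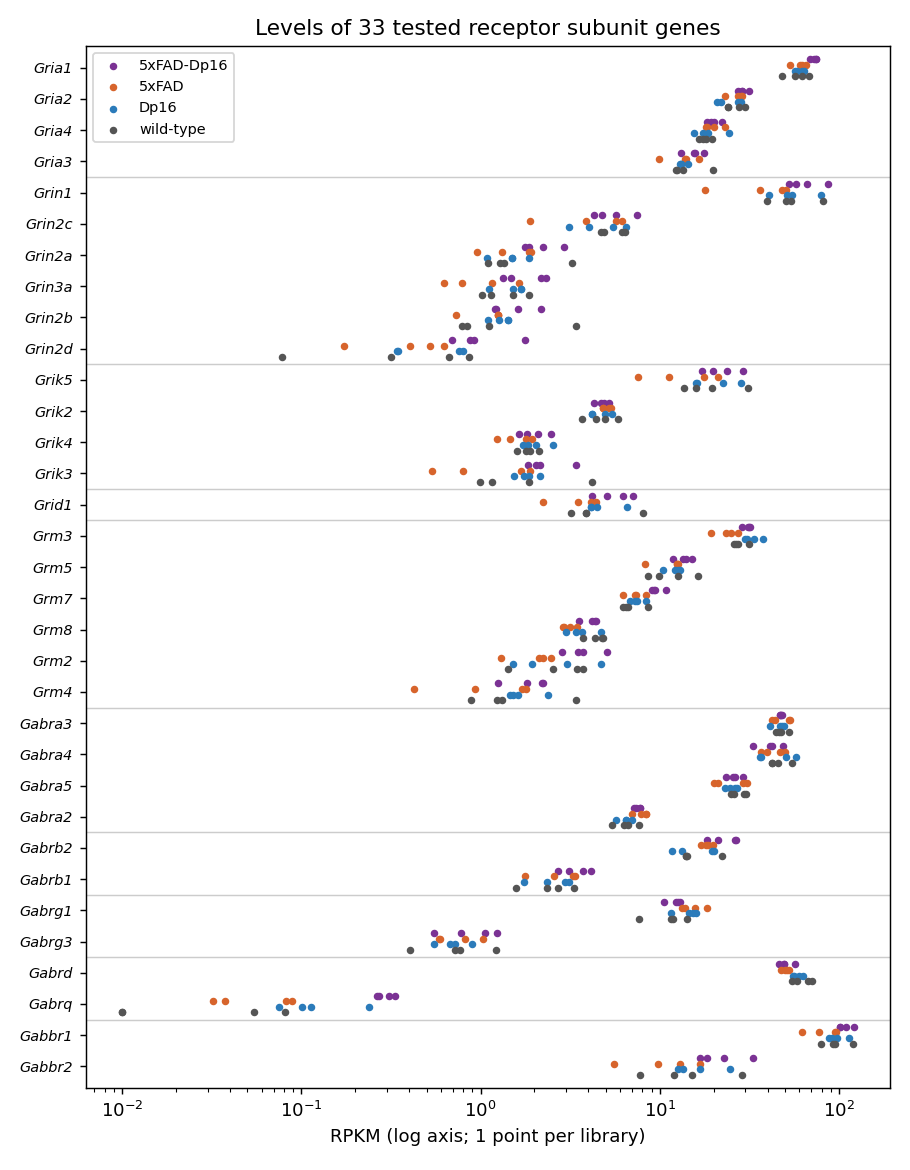
RPKM of 33 of the 38 tested members on a log axis, 1 point per library, with the genotypes in the order 5xFAD-Dp16, 5xFAD, Dp16 and wild-type from top to bottom within each gene. Grey lines part the receptor families, the highest mean shown is that of Gabbr1 (96.4 RPKM), and the 2 wild-type libraries with 0 reads for Gabrq are drawn at 0.01 RPKM.

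The filter on low counts left 38 of the 46 members for testing. The other 8 had few reads. Grm6, a receptor of retinal bipolar cells, had 0 reads in all 16 libraries. Gabrp had 5 reads in 1 library, Gabra6 had 8 in 2 libraries and Grin3b had 20 in 6 libraries. The rho subunit genes Gabrr1, Gabrr2 and Gabrr3, known mainly from the retina, had 36, 126 and 23 reads, and Gabre had 26 reads. Gabrr2 was the one of these 8 with a read in every library, at 0.16 to 1.24 CPM.

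The make-up of several receptors was described as the share of 1 subunit in the RPKM of its set, with no test. Gria2, the subunit that makes AMPA receptors impermeable to calcium, took 21.2% ± 1.33 of the RPKM of Gria1 to Gria4 in 5xFAD-Dp16, 22.2% ± 0.79 in 5xFAD, 20.9% ± 2.14 in Dp16 and 22.5% ± 0.66 in wild-type (mean ± SD, n = 4 each). Grin2a, the mature NMDA subunit, took 58.8% ± 1.49 of Grin2a and Grin2b together in 5xFAD-Dp16, 57.1% ± 4.13 in 5xFAD, 52.9% ± 3.14 in Dp16 and 55.6% ± 5.08 in wild-type. The ranges of both shares overlapped between 5xFAD-Dp16 and wild-type, but for Grin2a the 4 libraries of 5xFAD-Dp16, from 57.3% to 60.7%, lay above the 4 of Dp16, from 49.7% to 56.8%. Grm3 made up 89.1% ± 2.39 of Grm2 and Grm3 in 5xFAD-Dp16, 92.2% ± 0.97 in 5xFAD, 92.4% ± 3.07 in Dp16 and 91.0% ± 2.88 in wild-type, and its ranges overlapped between 5xFAD-Dp16 and each of the others.

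The genotypes were compared with edgeR's quasi-likelihood test with a term for sex, and p-values were adjusted over all 17019 tested genes by the Benjamini-Hochberg method, with a threshold of 0.05. In the 5 pairs of genotypes compared, and in the interaction of the transgenes with the duplication, 0 of the 38 members passed. The pair of 5xFAD and Dp16 was not compared, and mentions of 5 pairs below leave it out. Of all tested genes, 0% passed in 5xFAD-Dp16 against 5xFAD, 0.0176% in 5xFAD-Dp16 against Dp16, 0.047% in 5xFAD-Dp16 against wild-type, 0.176% in 5xFAD against wild-type, 0.0176% in Dp16 against wild-type and 0% in the interaction. The comparisons share libraries, so their values are given side by side and are not independent. The comparison with the most members at an unadjusted p under 0.05 was 5xFAD-Dp16 against 5xFAD, with 14, 13 of them higher and 1 lower in 5xFAD-Dp16, where 23.8% of all genes had one (11.8% higher and 12% lower). The median log2 fold change of the members was 0.31, against -0.0018 over all genes, with 28 members above 0 and 10 below, and the median was 0.057 once the trend of each library with gene length was removed and 0.145 without 5xFAD replicate 3 and wild-type replicate 4. With the groups not overlapping, 8 members were higher and 2 lower in 5xFAD-Dp16, where 5.59% of all genes were higher and 5.87% lower. Of 12 marker lists for cell types and neighbouring regions, 4 had sums that did not overlap in this comparison. The 7 excitatory neuron markers summed to 2262 to 3633 CPM in 5xFAD-Dp16 and 932 to 2209 CPM in 5xFAD. The 5 endothelial markers summed to 60.3 to 111 CPM in 5xFAD-Dp16 and 46.7 to 58.3 CPM in 5xFAD, and the 5 thalamus markers to 60.1 to 75.2 CPM in 5xFAD-Dp16 and 39.4 to 54.4 CPM in 5xFAD. For the 7 microglia markers the sums were 498 to 577 CPM in 5xFAD-Dp16 and 635 to 896 CPM in 5xFAD, the one list of the 4 that was lower in 5xFAD-Dp16. In 5xFAD the females had 886 and 896 CPM and the males 655 and 635 CPM. Marker sums here and below were not adjusted for sex. The part of the 4 marker lists in the members' differences was not tested. The count of calls depended on the model. DESeq2 called 2 members, Grik3 and Gabbr2, where it called 4.59% of all genes. Both were higher in 5xFAD-Dp16, as were 2.68% of all genes, and 1.91% were lower. A fit of the 2 groups alone called 17 members, 15 of them higher, where it called 31.3% of all genes, with 15.7% higher and 15.7% lower. Males alone gave 16 of 39 members, of which 14 were higher (22.5% of all genes, 12% higher and 10.5% lower). The fit of the 2 groups kept the term for sex, and the 5xFAD-Dp16 animals were all male. In both of these fits the difference therefore rests on the 2 5xFAD males, replicates 3 and 4, and the fits are not separate. Without the filter on low counts, 11 of 45 members were called, all higher, where 7.6% of all genes were called, 4.64% higher and 2.96% lower.

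In 5xFAD-Dp16 against Dp16, 4 members had an unadjusted p under 0.05, 3 of them higher and 1 lower, where 5.29% of all genes had one (2.67% higher and 2.63% lower). The members' median log2 fold change was 0.22, against 0.013 over all genes, 0.009 with the length trend removed and 0.097 without 5xFAD replicate 3 and wild-type replicate 4. Among members whose groups were free of overlap, 4 were higher, including Gria1, Grm7 and Gabrq, and Gabrd was lower, as were 2.82% and 2.61% of all genes. The summed inhibitory neuron markers ran from 1141 to 1177 CPM in 5xFAD-Dp16 and from 1318 to 1368 CPM in Dp16, and the 6 oligodendrocyte markers from 6058 to 6207 CPM in 5xFAD-Dp16 and from 6731 to 8717 CPM in Dp16. The thalamus markers ran from 60.1 to 75.2 CPM in 5xFAD-Dp16 and from 45.7 to 57.9 CPM in Dp16. The part of these markers in the differences was not tested. In 5xFAD-Dp16 against wild-type, 6 members had an unadjusted p under 0.05, 5 higher and 1 lower, where 10.4% of all genes had one (5.25% higher and 5.12% lower). The median was 0.20, against 0.024, and turned to -0.11 with the length trend removed. In this comparison 3 members were higher and 0 lower without overlap, as were 2.37% and 1.61% of all genes. The oligodendrocyte markers summed to 6058 to 6207 CPM in 5xFAD-Dp16 and 7343 to 8736 CPM in wild-type, and their part was not tested. Gabrq was called there by DESeq2, which called 0.623% of all genes (0.447% higher and 0.176% lower). Gabbr2 was called there without the filter on low counts, where 1% of all genes were called (0.631% higher and 0.371% lower).

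In 5xFAD against wild-type, 4 members had an unadjusted p under 0.05, 2 in each direction, where 10.7% of all genes had one (5.22% higher and 5.53% lower), and the median was -0.086, against 0.019. The median turned to 0.072 without wild-type replicate 4, and to 0.119 without 5xFAD replicate 3 as well. Gabra2 was higher and Grm8 lower in 5xFAD without overlap, as were 2.8% and 2.68% of all genes. The microglia markers summed to 635 to 896 CPM in 5xFAD and 473 to 563 CPM in wild-type, and the endothelial markers to 46.7 to 58.3 CPM in 5xFAD and 73.6 to 106 CPM in wild-type, and their part was not tested. Grin1 was called as lower without the filter on low counts, where 0.806% of all genes were called (0.343% higher and 0.463% lower). In Dp16 against wild-type, 2 members, Gabrq and Grm3, had an unadjusted p under 0.05, both higher, where 3.88% of all genes had one (2.48% higher and 1.4% lower). The median was 0.0054, against 0.0017, and 0.172 without wild-type replicate 4, and in 0 members were the groups free of overlap (1.44% of all genes higher and 0.852% lower). The interaction sets the effect of the duplication with the transgenes present against its effect without them. It gave 3 members with an unadjusted p under 0.05, Grik3 and Grm8 above 0 and Gabrg1 below, where 9.35% of all genes had one (4.58% above and 4.77% below), and a median of 0.27, against -0.011. That median was 0.10 with the length trend removed, 0.096 without wild-type replicate 4 and 0.022 without 5xFAD replicate 3 as well, and 0.47 with the trend of each library with transcript GC content removed. Gabbr2, Grik3 and Grin1 were called in it without the filter on low counts, where 1.19% of all genes were called (0.889% above 0 and 0.299% below). DESeq2 called 0 members in 5xFAD-Dp16 against Dp16 (0.147% of all genes), in 5xFAD against wild-type (1.37%), in Dp16 against wild-type (0.206%) and in the interaction (0.123%). The pooled SD of a library's member median within genotypes was 0.17 on the log2 scale.

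**Figure D2:**
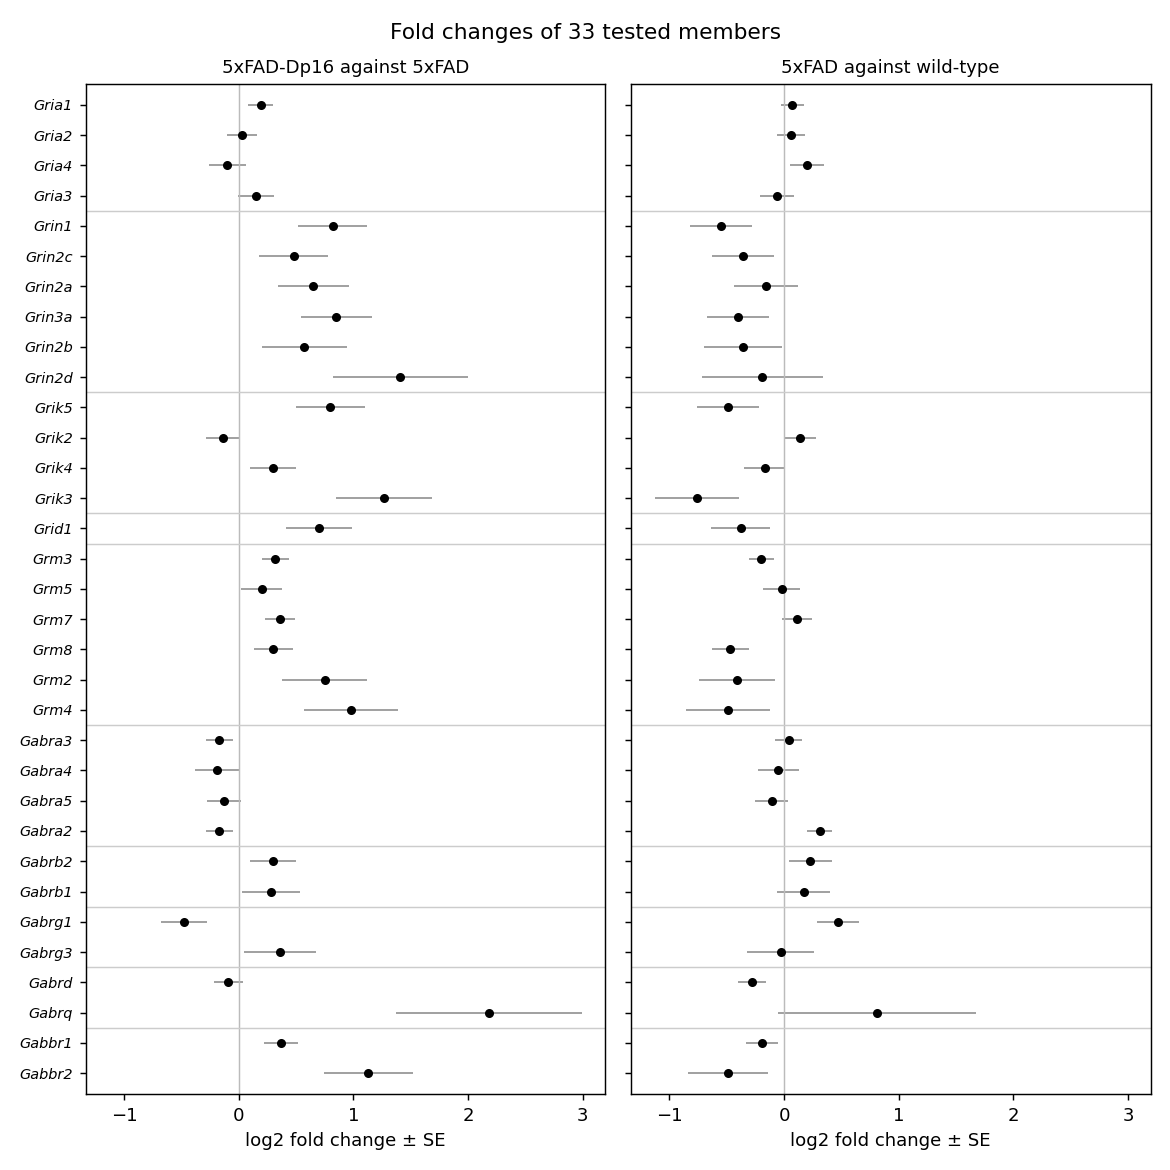
Log2 fold changes ± SE of 33 of the 38 tested members, 5xFAD-Dp16 against 5xFAD on the left and 5xFAD against wild-type on the right, grouped by receptor family. The NMDA and metabotropic glutamate receptor genes shown lie to the right of 0 on the left side, and the GABAA alpha genes shown lie to the left of 0 there; 6 of the 7 tested metabotropic genes were above 0 with the length trend removed, 3 of the 5 tested alpha genes were below 0 with the GC trend removed, and 0 of the 38 passed the adjusted threshold in either panel.

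The AMPA receptor genes, which carry fast excitatory transmission, had log2 fold changes of -0.10 to 0.19 in 5xFAD-Dp16 against 5xFAD, where 3 of 4 were above 0. With the length trend removed 0 of 4 were, and with the GC trend removed 4 of 4 were. Gria1 (ENSMUSG00000020524.16, chr11:57011387-57330244), a subunit whose insertion into synapses accompanies potentiation, had 402, 419, 417 and 388 CPM in the 5xFAD-Dp16 libraries, 374, 360.0, 342 and 358 in 5xFAD, 332, 339, 360.3 and 374 in Dp16 and 336, 287, 355 and 382 in wild-type. All 4 libraries of 5xFAD-Dp16 were above the 12 others. Its log2 fold change was 0.26 ± 0.11 (SE) against wild-type, 0.22 ± 0.11 (SE) against Dp16 and 0.19 ± 0.11 (SE) against 5xFAD, with adjusted p of 0.477, 0.758 and 0.307. When the trend of each library with gene length was removed, the signs against wild-type and 5xFAD turned, to -0.01 and -0.09, and the value against Dp16 was 0.01. Gria2 had 291, 292, 278 and 319 CPM in the 5xFAD-Dp16 libraries, 298, 286, 269 and 306 in 5xFAD, 221, 296, 231 and 290.3 in Dp16 and 257, 261, 288 and 306 in wild-type, and its groups overlapped in all 5 pairs. Gria3 had 91.9, 81.9, 82.98 and 69.6 CPM in the 5xFAD-Dp16 libraries, 75.4, 75.2, 60.1 and 91.8 in 5xFAD, 71.3, 71.7, 78.1 and 71.9 in Dp16 and 69.2, 69.1, 72.6 and 105 in wild-type. Gria4 had 111, 118, 124 and 136 CPM in the 5xFAD-Dp16 libraries, 112, 116, 163 and 129 in 5xFAD, 98.6, 117, 109 and 154 in Dp16 and 107, 127, 109 and 111 in wild-type. Both overlapped in all 5 pairs as well, with log2 fold changes of 0.15 ± 0.16 (SE) for Gria3 and -0.10 ± 0.16 (SE) for Gria4 in 5xFAD-Dp16 against 5xFAD.

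All 6 tested NMDA receptor genes had a higher fitted level in 5xFAD-Dp16 than in 5xFAD, with a median log2 fold change of 0.74, and all 6 had a lower fitted level in 5xFAD than in wild-type, with a median of -0.36. With the GC trend removed, 1 of the 6 was above 0 in the second comparison, and with the length trend removed the median in the first was 0.38. Grin1 (ENSMUSG00000026959.13, chr2:25291181-25319187), the subunit that every NMDA receptor needs, had 366, 223, 281 and 243 CPM in the 5xFAD-Dp16 libraries, 218, 212, 87.4 and 162 in 5xFAD, 241, 223, 345 and 179 in Dp16 and 224, 179, 233 and 346 in wild-type. The 5xFAD-Dp16 libraries all lay above the 5xFAD libraries, with a narrow gap between 223 and 218 CPM, and the lowest value by far was 87.4 CPM in 5xFAD replicate 3. Grin1 gave a log2 fold change of 0.82 ± 0.30 (SE) in 5xFAD-Dp16 against 5xFAD (adjusted p 0.157) and -0.55 ± 0.27 (SE) in 5xFAD against wild-type (adjusted p 0.477). Without 5xFAD replicate 3 these were 0.50 ± 0.28 and -0.32 ± 0.24, and without wild-type replicate 4 as well, a choice made after seeing the data, 0.36 ± 0.24 and -0.02 ± 0.22. With the GC trend removed the first was 0.54 ± 0.21.

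The modulatory NMDA subunits varied more between libraries. Grin2a, which dominates in mature cortex, had 41.8, 27.1, 32.5 and 25.8 CPM in the 5xFAD-Dp16 libraries, 28.5, 27.8, 15.97 and 20.2 in 5xFAD, 22.4, 22.3, 27.997 and 16.3 in Dp16 and 19.5, 16.9, 20.1 and 47.2 in wild-type. Wild-type replicate 4 exceeded every other library, and the groups overlapped in all 5 pairs; the log2 fold change was 0.65 ± 0.31 (SE) in 5xFAD-Dp16 against 5xFAD and 0.65 ± 0.30 (SE) against Dp16 (adjusted p 0.215 and 0.758). Removing the length trend left differences of 0.20 against 5xFAD and 0.29 against Dp16. Grin2b, the subunit that prevails early in life, had 51.6, 29.1, 38.9 and 29.2 CPM in the 5xFAD-Dp16 libraries, 30.8, 31.1, 20.1 and 31.7 in 5xFAD, 31.7, 35.2, 35.2 and 27.4 in Dp16 and 21.1, 20.1, 27.4 and 82.1 in wild-type. Here too the top value belonged to wild-type replicate 4, and the fitted difference of 5xFAD-Dp16 from 5xFAD was 0.57 ± 0.37 (SE) with overlapping groups, and 0.13 with the length trend removed.

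Grin2d, a subunit of interneurons and of early development, had 10.5, 4.15, 5.48 and 5.17 CPM in the 5xFAD-Dp16 libraries, 3.16, 3.83, 1.19 and 2.53 in 5xFAD, 4.97, 2.11, 4.66 and 2.13 in Dp16 and 4.17, 0.496, 1.94 and 5.15 in wild-type. Its 5xFAD-Dp16 libraries were above all 4 of 5xFAD, with a log2 fold change of 1.41 ± 0.59 (SE) (adjusted p 0.176), and the difference from wild-type was 1.22 ± 0.56 (SE) (adjusted p 0.479) with overlapping groups. Grin3a, which lowers calcium entry through NMDA receptors, had 15.5, 10.7, 16.9 and 9.69 CPM in the 5xFAD-Dp16 libraries, 12.2, 8.69, 5.21 and 6.01 in 5xFAD, 11.5, 12.5, 12.5 and 8.41 in Dp16 and 11.6, 7.85, 8.54 and 13.6 in wild-type. In 5xFAD the females had 12.2 and 8.69 CPM and the males 5.21 and 6.01 CPM. The groups overlapped in all 5 pairs, and the log2 fold change was 0.85 ± 0.31 (SE) against 5xFAD (adjusted p 0.157), 0.63 ± 0.33 without 5xFAD replicate 3 and 0.49 with the length trend removed. Grin2c gave 0.48 ± 0.30 (SE) in the same comparison.

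Among the kainate receptor genes, Grik3 and Grik5 had higher fitted levels in 5xFAD-Dp16 than in 5xFAD, and Grik2 did not. Grik3 (ENSMUSG00000001985.9, chr4:125490700-125714173), which codes for the low-affinity subunit GluK3, had 29.3, 17.7, 18.9 and 15.9 CPM in the 5xFAD-Dp16 libraries, 16.8, 15.1, 5.34 and 7.31 in 5xFAD, 13.9, 16.8, 19.3 and 15.9 in Dp16 and 10.6, 9.17, 16.6 and 36.4 in wild-type. The level in 5xFAD split by sex, with the 2 females at 16.8 and 15.1 CPM and the 2 males at 5.34 and 7.31 CPM. Wild-type spread from 9.17 to 36.4 CPM, both in females. Thus neither 5xFAD-Dp16 against 5xFAD nor 5xFAD against wild-type was free of overlap. The log2 fold change was 1.27 ± 0.42 (SE) in 5xFAD-Dp16 against 5xFAD (adjusted p 0.155), -0.76 ± 0.37 (SE) in 5xFAD against wild-type (adjusted p 0.473) and 1.32 ± 0.53 (SE) in the interaction (adjusted p 0.522). Without 5xFAD replicate 3 and wild-type replicate 4 these values were 0.66 ± 0.35, 0.10 ± 0.33 and 0.22 ± 0.47.

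Grik5, the high-affinity partner subunit GluK5, had 106, 62.8, 86.7 and 72.5 CPM in the 5xFAD-Dp16 libraries, 78.3, 67.0, 31.6 and 43.4 in 5xFAD, 85.2, 60.0, 106 and 61.1 in Dp16 and 61.0, 52.9, 73.4 and 115 in wild-type. The lowest values were those of 5xFAD replicates 3 and 4, the males of that genotype, and the groups overlapped. The log2 fold change in 5xFAD-Dp16 against 5xFAD was 0.80 ± 0.30 (SE) (adjusted p 0.161), 0.55 ± 0.32 without 5xFAD replicate 3 and 0.47 with the GC trend removed. Grik2, whose subunit forms functional kainate receptors alone, gave -0.14 ± 0.15 (SE), and Grik4 gave 0.30 ± 0.20 (SE), both with overlapping groups. The triplicated relative Grik1 (chr16:87895900-88290265) had 15.8, 11.4, 10.8 and 8.70 CPM in the 5xFAD-Dp16 libraries, 5.67, 8.57, 3.50 and 5.40 in 5xFAD, 9.37, 6.73, 8.66 and 7.52 in Dp16 and 7.62, 7.68, 5.27 and 5.21 in wild-type. Its 5xFAD-Dp16 libraries were above all libraries of 5xFAD and of wild-type, with log2 fold changes of 1.16 ± 0.28 (SE) and 0.99 ± 0.27 (SE) (adjusted p 0.155 and 0.331), while Dp16 overlapped wild-type at 0.32 ± 0.25 (SE) (adjusted p 1.00).

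Of the delta receptors, which act as synaptic organisers, Grid1 had 38.9, 23.3, 34.5 and 28.1 CPM in the 5xFAD-Dp16 libraries, 23.4, 25.2, 14.2 and 20.6 in 5xFAD, 23.9, 25.3, 37.5 and 23.9 in Dp16 and 22.6, 18.8, 21.98 and 44.9 in wild-type. The log2 fold change was 0.70 ± 0.29 (SE) in 5xFAD-Dp16 against 5xFAD (adjusted p 0.171), with groups that met because 5xFAD-Dp16 replicate 2 lay below 5xFAD replicates 1 and 2. It was 0.42 with the length trend removed.

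All 7 tested metabotropic glutamate receptor genes had a higher fitted level in 5xFAD-Dp16 than in 5xFAD, with a median log2 fold change of 0.36, and 6 of the 7 did with the length trend removed, with a median of 0.19. Grm7 (ENSMUSG00000056755.13, chr6:110645581-111567230), a presynaptic receptor of low glutamate affinity, had 44.5, 37.9, 39.2 and 38.4 CPM in the 5xFAD-Dp16 libraries, 31.2, 31.1, 30.0 and 36.9 in 5xFAD, 32.4, 31.3, 29.3 and 36.1 in Dp16 and 27.3, 29.2, 27.4 and 36.0 in wild-type. The lowest 5xFAD-Dp16 library, at 37.9 CPM, was above the highest of the other 12, at 36.9 CPM in 5xFAD replicate 4. Its log2 fold change was 0.36 ± 0.13 (SE) against 5xFAD, 0.37 ± 0.14 (SE) against Dp16 and 0.48 ± 0.14 (SE) against wild-type, with unadjusted p of 0.0149, 0.0145 and 0.00283 and adjusted p of 0.157, 0.758 and 0.343 by edgeR. With the length trend removed the values were 0.19, 0.25 and 0.29. Of the alternatives run, Grm7 passed against wild-type only by edgeR without 5xFAD replicate 3 and wild-type replicate 4, at 0.53 ± 0.13 (adjusted p 0.0487), where 1.77% of all genes passed (1.12% higher and 0.647% lower). Against wild-type, the log2 fold change was 0.11 ± 0.13 (SE) for 5xFAD and 0.11 ± 0.12 (SE) for Dp16.

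**Figure D3:**
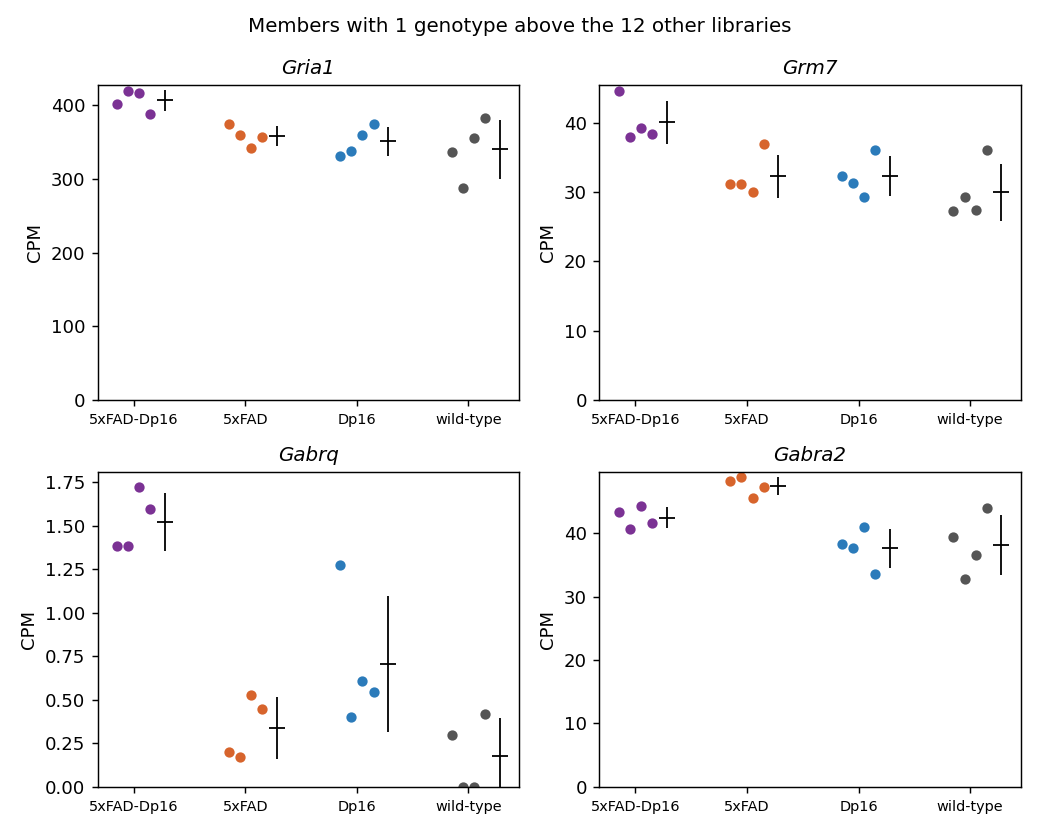
CPM per library of Gria1, Grm7, Gabrq and Gabra2, with the genotypes in the order 5xFAD-Dp16, 5xFAD, Dp16 and wild-type from left to right, and black bars for the mean ± SD (n = 4). For Gria1, Grm7 and Gabrq the 4 libraries of 5xFAD-Dp16 lie above the 12 others, and for Gabra2 those of 5xFAD do; by edgeR over all 16 libraries no adjusted p for these genes was under 0.05, and the lower end of the wild-type bar for Gabrq is cut at 0.

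Grm8, another presynaptic receptor of the same group, had 16.2, 15.8, 16.3 and 13.3 CPM in the 5xFAD-Dp16 libraries, 11.2, 12.2, 12.3 and 13.6 in 5xFAD, 11.6, 13.1, 14.1 and 18.2 in Dp16 and 18.8, 14.8, 16.5 and 18.1 in wild-type. All 5xFAD libraries lay below all wild-type libraries, and Dp16 spread over both. The log2 fold change in 5xFAD against wild-type was -0.47 ± 0.16 (SE) (unadjusted p 0.0104, adjusted p 0.317), that in Dp16 against wild-type was -0.25 ± 0.16 (SE) and the interaction was 0.56 ± 0.24 (SE) (adjusted p 0.522). Grm3, a receptor of neurons and astrocytes, had 92.5, 94.5, 84.8 and 91.6 CPM in the 5xFAD-Dp16 libraries, 82.5, 76.4, 65.3 and 73.3 in 5xFAD, 92.1, 102, 114 and 94.5 in Dp16 and 80.5, 86.1, 80.5 and 94.1 in wild-type. The 5xFAD-Dp16 libraries were all above those of 5xFAD, at 0.32 ± 0.12 (SE) (adjusted p 0.161), and the Dp16 difference from wild-type was 0.24 ± 0.11 (SE) (adjusted p 1.00) with overlap. The summed astrocyte markers ranged from 2867 to 4090 CPM in 5xFAD-Dp16 and from 2379 to 4056 CPM in 5xFAD, and their part in the level of Grm3 was not tested.

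Grm2, a presynaptic autoreceptor, had 23.0, 13.02, 17.1 and 15.96 CPM in the 5xFAD-Dp16 libraries, 11.5, 10.6, 6.80 and 10.2 in 5xFAD, 14.3, 9.07, 22.2 and 7.17 in Dp16 and 12.1, 6.94, 16.1 and 17.2 in wild-type. The groups of 5xFAD-Dp16 and 5xFAD did not overlap, and the log2 fold change was 0.75 ± 0.37 (SE) (adjusted p 0.225). Grm4 gave 0.98 ± 0.41 (SE) and Grm5, a postsynaptic receptor that signals through phospholipase C, 0.20 ± 0.18 (SE) in 5xFAD-Dp16 against 5xFAD.

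The 5 tested GABAA alpha genes all had a lower fitted level in 5xFAD-Dp16 than in 5xFAD, with log2 fold changes of -0.19 to -0.13, but 2 of the 5 were above 0 with the GC trend removed, while with the length trend removed the median moved from -0.17 to -0.36. Gabra2 (ENSMUSG00000000560.9, chr5:70957597-71095849), the alpha subunit of axon initial segment synapses and of anxiolytic benzodiazepine action, had 43.3, 40.7, 44.3 and 41.7 CPM in the 5xFAD-Dp16 libraries, 48.3, 48.9, 45.7 and 47.3 in 5xFAD, 38.3, 37.8, 41.0 and 33.6 in Dp16 and 39.5, 32.8, 36.6 and 44.0 in wild-type. The 4 libraries of 5xFAD were above the 12 others. In 5xFAD against wild-type the log2 fold change was 0.31 ± 0.11 (SE) (unadjusted p 0.014, adjusted p 0.346), and 0.03 ± 0.16 with the GC trend removed. For 5xFAD-Dp16 it was -0.17 ± 0.12 (SE) against 5xFAD, which turned to 0.07 ± 0.17 with the GC trend removed and was -0.46 ± 0.11 with the length trend removed (adjusted p 0.135 by edgeR). Against wild-type it was 0.14 ± 0.12 (SE), which turned to -0.14 with the length trend removed and was 0.09 with the GC trend removed. Gabra3 had 177, 176, 180.4 and 177 CPM in the 5xFAD-Dp16 libraries, 167, 163, 228 and 208 in 5xFAD, 187, 181, 159 and 193 in Dp16 and 208, 185, 183 and 168 in wild-type. Gabra4, which pairs with the delta subunit outside synapses, had 132, 172, 167 and 199 CPM in the 5xFAD-Dp16 libraries, 164, 154, 233 and 201 in 5xFAD, 152, 212, 153 and 243 in Dp16 and 181, 236, 188 and 172 in wild-type. The groups of both genes overlapped in all 5 pairs. Gabra5, an extrasynaptic subunit, had 67.0, 84.6, 74.0 and 76.1 CPM in the 5xFAD-Dp16 libraries, 61.8, 60.0, 96.0 and 93.0 in 5xFAD, 69.4, 78.0, 72.8 and 80.4 in Dp16 and 89.0, 93.4, 76.5 and 72.1 in wild-type, and gave -0.14 ± 0.14 (SE) in Dp16 against wild-type (adjusted p 1.00). In 5xFAD its lower values, 61.8 and 60.0 CPM, were those of the females.

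The 3 beta subunit genes, which are needed for assembly and hold the GABA binding site with alpha, had higher fitted levels in 5xFAD-Dp16 than in each of the other genotypes, except that 2 of the 3 did against 5xFAD with the length trend removed. Their median log2 fold change against 5xFAD was 0.30, and 0.07 with that trend removed. Against Dp16 it was 0.41, and 0.12 with the trend removed, and against wild-type 0.45 and 0.04. Gabrb2 had 104, 73.1, 84.6 and 107 CPM in the 5xFAD-Dp16 libraries, 80.1, 74.8, 77.7 and 77.9 in 5xFAD, 48.3, 80.1, 54.4 and 83.4 in Dp16 and 59.5, 59.2, 57.1 and 89.2 in wild-type. In 5xFAD-Dp16 it gave 0.52 ± 0.20 (SE) against Dp16 and 0.53 ± 0.21 (SE) against wild-type, with adjusted p of 0.758 and 0.449, and both pairs overlapped, in the second because of wild-type replicate 4 at 89.2 CPM. Gabrb1 gave 0.28 ± 0.25 (SE) against 5xFAD with overlap. Its exons overlap those of Gabra4 on the opposite strand, where Gabrb1 starts at chr5:71658113 and Gabra4 runs to chr5:71658308. The strand setting of the counting is not given in the sources used here. How reads from that shared stretch were assigned is therefore not known, while reads from the rest of both genes are not affected. The same holds for the shared stretches of Grin1, Grin2b, Grin2c, Grin2d, Grm2, Grm7 and Gabra5, whose exons overlap noncoding genes on the opposite strand. The lengths of those stretches were not measured.

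Gabrg1 (ENSMUSG00000001260.10, chr5:70751047-70842617), a gamma subunit found in only some cell groups of the brain, had 48.1, 58.6, 57.2 and 59.9 CPM in the 5xFAD-Dp16 libraries, 63.1, 66.5, 96.9 and 76.7 in 5xFAD, 76.2, 73.2, 54.8 and 69.9 in Dp16 and 55.7, 70.1, 56.4 and 35.4 in wild-type. All 5xFAD-Dp16 libraries were below all 5xFAD libraries, and wild-type spread from 35.4 to 70.1 CPM. The log2 fold change was -0.48 ± 0.20 (SE) in 5xFAD-Dp16 against 5xFAD (adjusted p 0.168), 0.47 ± 0.18 (SE) in 5xFAD against wild-type (adjusted p 0.381), 0.34 ± 0.18 (SE) in Dp16 against wild-type (adjusted p 1.00) and -0.82 ± 0.27 (SE) in the interaction (unadjusted p 0.00733, adjusted p 0.522). Among the members Gabrg1 had the smallest unadjusted p in the interaction. With the GC trend removed, the log2 fold change was -0.16 ± 0.16 in 5xFAD-Dp16 against 5xFAD, 0.13 ± 0.15 in 5xFAD against wild-type and -0.42 ± 0.22 in the interaction. Without 5xFAD replicate 3 and wild-type replicate 4 the log2 fold change was -0.23 ± 0.15 in 5xFAD-Dp16 against 5xFAD, 0.16 ± 0.15 in 5xFAD against wild-type and -0.39 ± 0.21 in the interaction. Gabrg3 gave 0.36 ± 0.31 (SE) in 5xFAD-Dp16 against 5xFAD.

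Gabrd, the subunit of extrasynaptic receptors that give tonic inhibition, had 90.7, 86.7, 92.2 and 106 CPM in the 5xFAD-Dp16 libraries, 94.6, 98.2, 102 and 104 in 5xFAD, 108, 115, 107 and 123 in Dp16 and 132, 139.6, 111 and 102 in wild-type. The 5xFAD-Dp16 libraries lay below all 4 Dp16 libraries, and in the other pairs compared the groups overlapped. Gabrd gave -0.09 ± 0.13 (SE) in 5xFAD-Dp16 against 5xFAD, -0.27 ± 0.13 (SE) against Dp16 and -0.37 ± 0.13 (SE) against wild-type, and -0.28 ± 0.12 (SE) in 5xFAD against wild-type, with adjusted p of 0.679, 0.758, 0.433 and 0.41. The first of these turned to 0.03 with the length trend removed and was -0.23 with the GC trend removed. In Dp16 against wild-type Gabrd gave -0.10 ± 0.12 (SE).

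Gabrq (ENSMUSG00000031344.11, chrX:72825178-72842602), the theta subunit, is known from monoaminergic and hypothalamic neurons. It had 1.39, 1.38, 1.72 and 1.60 CPM in the 5xFAD-Dp16 libraries, 0.198, 0.171, 0.528 and 0.450 in 5xFAD, 1.28, 0.399, 0.608 and 0.544 in Dp16 and 0.298, 0, 0 and 0.421 in wild-type, and 2 wild-type libraries held 0 reads. All 4 libraries of 5xFAD-Dp16 were above the 12 others, the nearest being Dp16 replicate 1 at 1.28 CPM. For 5xFAD-Dp16 the log2 fold change was 2.18 ± 0.81 (SE) against 5xFAD, 1.15 ± 0.84 (SE) against Dp16 and 2.99 ± 0.90 (SE) against wild-type, with adjusted p of 0.158, 0.758 and 0.39. Dp16 against wild-type gave 1.84 ± 0.82 (SE) (adjusted p 1.00). These rest on few reads, and the fitted folds depend on how low counts are treated. Gabrq passed the filter on low counts only through its 5xFAD-Dp16 libraries, the group where it is high. Its order, its lack of overlap and its call by DESeq2 are therefore no separate support for a difference.

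The pair of GABAB receptor genes, whose products function only as a dimer, both had higher fitted levels in 5xFAD-Dp16 than in 5xFAD. Gabbr1 had 768, 649.9, 707 and 648 CPM in the 5xFAD-Dp16 libraries, 629.7, 629, 455 and 525 in 5xFAD, 648, 604, 749 and 587 in Dp16 and 621, 541, 619 and 769.8 in wild-type. The 5xFAD-Dp16 libraries were all above those of 5xFAD, at 0.37 ± 0.15 (SE) (adjusted p 0.17). After removal of the length trend the value was 0.05. Gabbr2 (ENSMUSG00000039809.10, chr4:46662305-46991873) had 183, 94.3, 128 and 102 CPM in the 5xFAD-Dp16 libraries, 73.8, 97.2, 35.6 and 57.7 in 5xFAD, 97.0, 77.8, 142 and 73.3 in Dp16 and 70.6, 46.3, 86.5 and 162 in wild-type. The groups met, since 5xFAD-Dp16 replicate 2 lay at 94.3 CPM and 5xFAD replicate 2 at 97.2 CPM, and the log2 fold change was 1.13 ± 0.39 (SE) against 5xFAD by edgeR (adjusted p 0.156). Leaving out 5xFAD replicate 3 gave 0.85 ± 0.41.

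Within genotypes, single libraries were the highest or lowest for many members. 5xFAD replicate 3 was the lowest of its genotype for 24 of the 38 members, where 37.2% of all genes had their lowest value there, and the highest for 9. Wild-type replicate 4 was the highest of its genotype for 27 members (35.3% of all genes), and wild-type replicate 2 the lowest for 23 (32.4%). The 24 members lowest in 5xFAD replicate 3 had a median GC content of 48.9% in their longest transcript, and the 9 highest there one of 42.2%. Their median gene lengths were 5.91 and 4.81 kb. Over all tested genes, Spearman's rho between gene length and deviation from the mean of all libraries was -0.462 in 5xFAD replicate 3. It was 0.435 in wild-type replicate 4 and 0.102 to 0.451 in the 5xFAD-Dp16 libraries. With GC content in place of length, rho was -0.281 in 5xFAD replicate 3 and 0.218 in wild-type replicate 4. Over the 11 members with a GC content of 50% or more, the median deviation from the genotype mean was -0.79 in 5xFAD replicate 3 and 0.54 in wild-type replicate 4, on the scale of log2(CPM + 0.5). In 5xFAD-Dp16 replicate 1 and Dp16 replicate 3 it was 0.42 and 0.45. Over the 27 members below 50% it was -0.10, 0.27, 0.03 and -0.04 in these libraries, in that order.

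**Figure D4:**
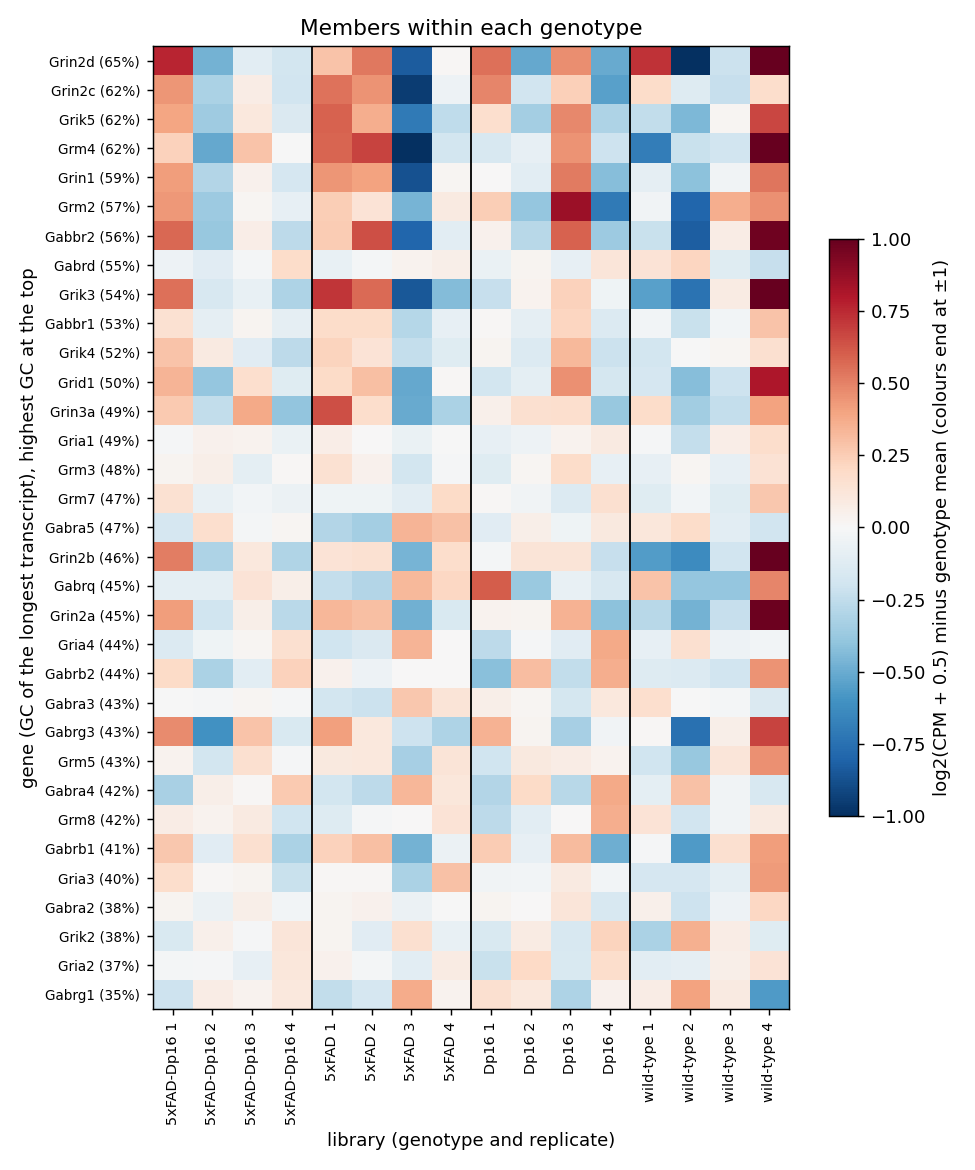
Deviation of 33 of the 38 tested members from their genotype means on the scale of log2(CPM + 0.5), with genes from the highest GC content at the top to the lowest at the bottom and libraries by genotype from left to right. The GC-rich members at the top are low in 5xFAD replicate 3, with a median of -0.79 over the 11 genes of 50% GC or more, and high in wild-type replicate 4, with a median of 0.54.

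The fold changes of the members were set against GC content in each comparison. Across the 38 members, Spearman's rho between log2 fold change and GC content was 0.72 in 5xFAD-Dp16 against 5xFAD and -0.71 in 5xFAD against wild-type. It was 0.66 in the interaction, 0.42 in 5xFAD-Dp16 against wild-type, 0.34 in 5xFAD-Dp16 against Dp16 and 0.26 in Dp16 against wild-type. With gene length in place of GC content, rho was 0.17, 0.09, 0.22, 0.32, 0.40 and -0.11 in the same order. The members had a median length of 5.44 kb, against 3.16 kb over genes with a mean count of 10 or more. All of these values of rho are given without a test. These are descriptions across genes that share libraries and are not independent. Of the 11 members with 50% GC or more, 10 were above 0 in 5xFAD-Dp16 against 5xFAD, with a median of 0.80, Gabrd being the exception, and 11 of 11 were below 0 in 5xFAD against wild-type, with a median of -0.41. Of the 27 other members, 18 were above 0 in the first comparison, with a median of 0.20, and 14 in the second, with a median of 0.04. The GC-rich group held Grin2d at 65.0% GC, Grin1 at 59.4% and Gabbr2 at 56.0%, while Gabrg1, at 35.3%, was the lowest of the 38. The summed excitatory markers moved with the same libraries, as given above. Their part in these differences was not tested, nor was that of base composition or of gene length.

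**Figure D5:**
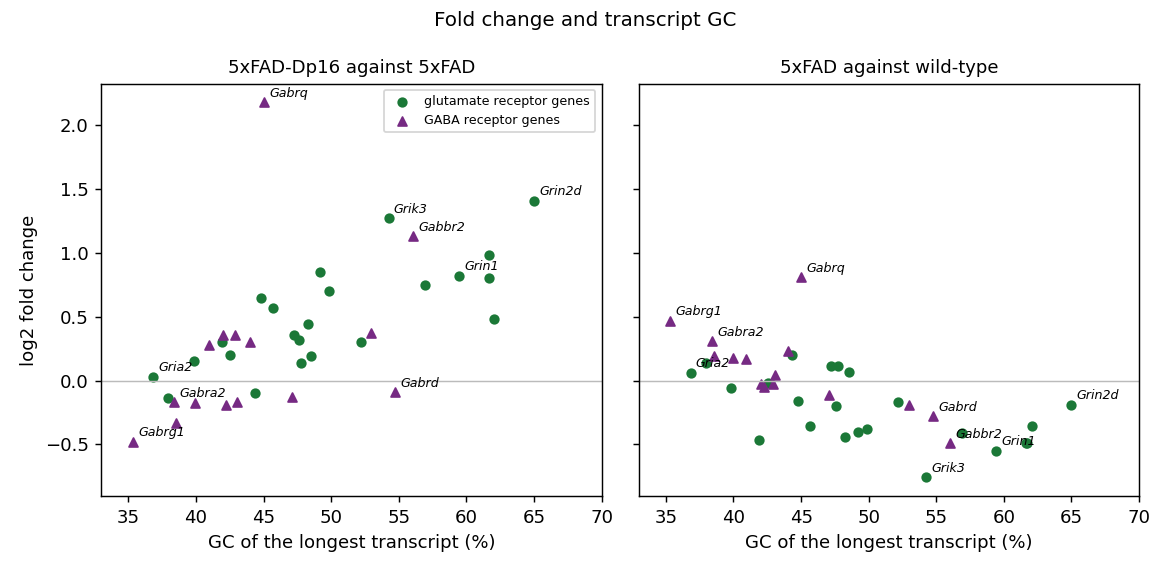
Log2 fold change of the 38 tested members against the GC content of their longest transcript, for 5xFAD-Dp16 against 5xFAD on the left and 5xFAD against wild-type on the right. Points run upward with GC on the left (Spearman's rho 0.72) and downward on the right (rho -0.71), and Gabrq stands off both trends.

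Genes that traffic, anchor or supply these receptors were followed in 8 lists, 117 of whose genes were tested, and 0 of these passed the adjusted threshold in any of the 6 comparisons by edgeR. DESeq2 called 15 in 5xFAD-Dp16 against 5xFAD, where 106 of the 117 had an adjusted p. Of all 17019 tested genes, including those without an adjusted p, it called 4.59%. It called 1 against Dp16, Slitrk3, where 0.147% of all genes were called, and 3 against wild-type, Hap1, Phgdh and Slitrk3, where 0.623% were. In 5xFAD against wild-type it called 1, Porcn, where 1.37% of all genes were called, and it called 0 in the other comparisons. Its 15 calls included Cacng8, Ncdn, Nrxn2, Slc12a5 and Slc6a9. In 5xFAD-Dp16 against 5xFAD, the AMPA receptor auxiliary genes had 19 of 22 above 0, with a median log2 fold change of 0.53 and 12 at an unadjusted p under 0.05, where 23.8% of all genes had one. Cacng8, which codes for a TARP that carries AMPA receptors to the synapse, averaged 44.9 ± 9.30 CPM in 5xFAD-Dp16 and 26.3 ± 6.30 CPM in 5xFAD (SD, n = 4 each), a log2 fold change of 0.89 ± 0.22 (SE). Against the same 23.8%, the glutamate receptor scaffolds had 12 of 20 at an unadjusted p under 0.05, with 17 above 0 and a median of 0.57. Dlg4, the gene of PSD-95, gave 0.64 ± 0.24, and Ncdn gave 0.92 ± 0.31. Leaving out 1 library at a time gave 0.44 to 0.73 for Dlg4, 0.61 to 1.02 for Ncdn and 0.72 to 0.99 for Cacng8. In 5xFAD replicate 3 Ncdn had 190 CPM, where the other 5xFAD libraries had 326 to 480 CPM. The genes of these lists share libraries, so their counts are not independent. The kainate auxiliary and delta receptor partner genes were closer to 0, with a median of 0.12 and 1 of 10 at an unadjusted p under 0.05, namely Nrxn2 at 0.97 ± 0.35.

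On the inhibitory side, the genes that anchor and assemble GABAA receptors had 12 of 18 above 0 in 5xFAD-Dp16 against 5xFAD, with a median of 0.29 and 7 at an unadjusted p under 0.05 (23.8% of all genes). Slitrk3, a postsynaptic adhesion molecule of inhibitory synapses, had 53.2, 53.4, 53.8 and 52.0 CPM in 5xFAD-Dp16, against 40.6, 40.6, 43.6 and 42.6 CPM in Dp16, a log2 fold change of 0.39 ± 0.11 without overlap of the groups (unadjusted p 0.00224, adjusted p 0.758). Hap1, which codes for a trafficking adaptor, gave 0.95 ± 0.25 in 5xFAD-Dp16 against wild-type (adjusted p 0.319). The GABAB auxiliary genes had 5 of 8 above 0 in 5xFAD-Dp16 against 5xFAD and a median of 0.24, and Kctd12 gave 0.64 ± 0.20 in 5xFAD-Dp16 against wild-type (adjusted p 0.398). The GABA handling genes had 10 of 10 above 0 against 5xFAD, with a median of 0.50. Among them Slc12a5, the gene of the chloride extruder KCC2, averaged 174 ± 55.0 CPM in 5xFAD-Dp16 and 89.1 ± 36.5 CPM in 5xFAD, a log2 fold change of 1.17 ± 0.41 (adjusted p 0.156). Leaving out 1 library at a time gave 0.83 to 1.30. Slc12a5 had 41.1 CPM in 5xFAD replicate 3, where the other 5xFAD libraries had 80.3 to 118 CPM. In wild-type replicate 4 it had 234 CPM, where the other wild-type libraries had 68.5 to 116 CPM.

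The glutamate handling genes had 15 of 19 above 0 in 5xFAD-Dp16 against 5xFAD, with a median of 0.32, and Got2 gave 0.39 ± 0.14. The genes that make or clear the NMDA receptor coagonists glycine and D-serine had 5 of 10 above 0 and a median of -0.01. In that list Phgdh, the first enzyme of serine synthesis, averaged 104 ± 5.09 CPM in 5xFAD-Dp16 and 146 ± 25.0 CPM in wild-type, a log2 fold change of -0.52 ± 0.13 (unadjusted p 0.000819, adjusted p 0.263 by edgeR). Slc6a9, the glycine transporter GlyT1, gave 1.06 ± 0.28 in 5xFAD-Dp16 against 5xFAD (adjusted p 0.155).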

How the data were processed

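Poly(A) RNA from the cortex of 16 mice was made into strand-specific libraries and sequenced as paired reads of 150 bp, per the labels' protocols. The submitters' processing notes name the GRCm38 build, HISAT2 2.1.0, SAMtools 1.5 and HTSeq 0.6.1; the strand setting of the counting is not given in the sources used here. The authors deposited raw read counts per gene and RPKM values, which are counts scaled by gene length and library total. In 100.0% of non-zero values both tables fitted that relation within 0.1%.

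Groups came from the labels. Counts were fitted for all 16 libraries in R 4.3.3 with edgeR 4.0.16 (TMM factors, filterByExpr, robust quasi-likelihood fit, 1 mean per genotype and an additive term for sex, 11 residual degrees of freedom), and two-sided p-values were adjusted over 17019 genes. The sex term rests on the other 3 genotypes, since the 5xFAD-Dp16 animals were all male. The script was tested on simulated data. Alternatives were DESeq2 1.42.0, RLE and upper quartile scaling, no filter, no sex term, a replicate block, males alone, the 2 groups alone, removal of each library's length or GC trend, and leaving out libraries. The members and lists were chosen with earlier results of these data known. Named with full values were the 6 members of smallest unadjusted p in each comparison, the most abundant member of each family, those in subunit shares and Grik1; some of these are not reported here. The members with 1 genotype above all others, the promoter windows shown and further values named were chosen after the values were seen. GC content and coordinates came from an earlier Gencode release on GRCm38 than the one the deposited tables are named for, matched by gene identifier for 55144 genes. Each edgeR p-value sets a fitted difference against the spread between animals, estimated over the libraries fitted and moderated across genes.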

Additional observations from a re-analysis of the deposited data

Results flagged for a closer look

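In 109 sets of 4 libraries, each 1 member or Grik1 in 1 genotype, the highest or lowest library was compared with its nearest neighbour by Dixon's ratio, and 9 sets passed the 95% critical value for 4 libraries. Chance alone passes about 1 in 20 sets. In wild-type, 5 of the 9 were the highest library, replicate 4 each time, namely Gabrb2 at 89.2 CPM, Gria3 at 104.7 CPM, Grid1 at 44.9 CPM, Grin2a at 47.2 CPM and Grin2b at 82.1 CPM. In Dp16, replicate 3 stood apart as the highest library for Gria3 at 78.1 CPM and for Grid1 at 37.5 CPM. In 5xFAD, replicate 3 was the lowest library for Grin2b at 20.1 CPM. In 5xFAD-Dp16, replicate 3 was the highest library for Gabra3 at 180.4 CPM, where the other 3 libraries lay between 176 and 177 CPM. Wild-type replicate 4 also carried the highest summed excitatory markers of its genotype, at 3445 CPM, and the part of these markers was not tested.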

How the results depend on the processing

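In 5xFAD-Dp16 against 5xFAD, the count of members past the adjusted threshold was 0 by edgeR over all libraries, 2 by DESeq2, 11 with no filter on low counts, 16 in males alone and 17 with the 2 groups alone. The shares of all genes called in these fits, in that order, were 0%, 4.59%, 7.6%, 22.5% and 31.3%. The fits of males alone and of the 2 groups alone both rest on the same 2 5xFAD males. In 5xFAD-Dp16 against wild-type the count was 1 by DESeq2, 1 with no filter and 1 without 5xFAD replicate 3 and wild-type replicate 4. Of all genes, 0.623%, 1% and 1.77% were called there. With no filter the count was 1 in 5xFAD against wild-type and 3 in the interaction, where 0.806% and 1.19% of all genes were called. With the length trend removed, the members' median log2 fold change was 0.057 in 5xFAD-Dp16 against 5xFAD, 0.009 against Dp16, -0.11 against wild-type and 0.10 in the interaction. With the GC trend removed, an alternative chosen after seeing the data, the interaction was 0.47. Without 5xFAD replicate 3 and wild-type replicate 4, also chosen after seeing the data, the medians were 0.145 in 5xFAD-Dp16 against 5xFAD, 0.097 against Dp16, 0.12 in 5xFAD against wild-type, 0.17 in Dp16 against wild-type and 0.022 in the interaction. The causes were not tested. Leaving out 1 library at a time gave counts of 0 in all 6 comparisons. The medians then ranged from 0.24 to 0.38 in 5xFAD-Dp16 against 5xFAD, 0.14 to 0.30 against Dp16, 0.14 to 0.30 against wild-type, -0.18 to 0.072 in 5xFAD against wild-type, -0.087 to 0.17 in Dp16 against wild-type and 0.096 to 0.43 in the interaction. The highest value in Dp16 against wild-type, and the interaction's lowest, came without wild-type replicate 4.

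Some single genes changed sign. With the length trend removed, Gria1 was at -0.09 in 5xFAD-Dp16 against 5xFAD and -0.01 against wild-type, Gabra2 at -0.04 against Dp16 and -0.14 against wild-type, and Gabrd at 0.03 against 5xFAD. With the GC trend removed, Gabra2 was at 0.07 in 5xFAD-Dp16 against 5xFAD. Without 5xFAD replicate 3 and wild-type replicate 4, Grik3 was at 0.10 in 5xFAD against wild-type and Grin2a at -0.01 in the interaction, where leaving out 1 library at a time gave -1.04 to -0.24 for Grik3 and 0.26 to 1.07 for Grin2a. Phgdh passed the threshold in 5xFAD-Dp16 against wild-type without wild-type replicate 4 (-0.60, adjusted p 0.0435 by edgeR), without 5xFAD replicate 3 as well (-0.60, adjusted p 0.0196 by edgeR) and by DESeq2 (-0.53, adjusted p 0.0242). In expression, the replicate numbers gave no sign of pairing between animals. The 24 pairs of same-numbered libraries correlated between -0.365 and 0.316, 5 of them over 0.1, and 1 of 16 libraries correlated best with its own number. Whether same-numbered animals were related or handled together cannot be told from these correlations. With the replicate number as a block, the count was 0 in all 6 comparisons and the medians were 0.31, 0.23, 0.24, -0.055, 0.0088 and 0.23, in the order used above. Genes with few reads, such as Gabrq, are limited by depth, and their fitted folds by the treatment of low counts.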
